A study of Mus musculus with 2 samples.

Results

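Small nucleolar RNAs (snoRNAs) and small Cajal-body RNAs (scaRNAs) were taken as every row of the gene tables whose Ensembl identifier mapped to a mouse symbol beginning with Snora, Snord or Scarna. This gave 147 of 43346 Ensembl genes, of which 97 were Snord, 41 Snora and 9 Scarna. The GENCODE M21 annotation gave 140 of them the biotype snoRNA and 7 the biotype scaRNA. Total RNA was sequenced from the intestine of 2 newborn B6NCrl mice (age 0 day), littermates that are called pup 1 and pup 2. No allele or treatment is labelled for either, and they formed 1 group, with 1 library per pup. RNA longer than 200 nt was used, 10 ng per library, with spike-in transcripts added, and each library came from 1 intestine, so fewer cells of a type and less RNA per cell cannot be told apart. Expected counts, which divide reads that match several genes, came to 44568098 over the Ensembl genes of pup 1 and 34797495 over those of pup 2.

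Box C/D snoRNAs (symbols Snord) carry a C box near the 5′ end and a D box near the 3′ end and mostly guide methylation of ribose in ribosomal RNA. Box H/ACA snoRNAs (symbols Snora) fold into hairpins, end in an ACA box shortly before the 3′ end and mostly guide conversion of uridine to pseudouridine. Small Cajal-body RNAs (symbols Scarna) carry either or both kinds of box and guide the same changes in spliceosomal RNAs, and most RNAs of all 3 classes are cut out of introns of a host gene.

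RNAs on which the results turn are printed below from the GENCODE M21 transcripts (GRCm38, the same assembly as mm10), 5′ to 3′. Capitals mark the letters TGATGA (the end of the C box), CTGA (the D box) or ACA, as found by exact search on the RNA strand. The first holds most of the reads of the Snord class, the next 3 stand for H/ACA and Cajal-body RNAs with reads, and the last 2 are typical short Snord RNAs.
Snord118: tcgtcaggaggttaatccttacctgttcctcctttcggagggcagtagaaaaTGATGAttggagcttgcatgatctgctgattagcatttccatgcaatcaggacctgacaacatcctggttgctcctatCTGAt
Snora57: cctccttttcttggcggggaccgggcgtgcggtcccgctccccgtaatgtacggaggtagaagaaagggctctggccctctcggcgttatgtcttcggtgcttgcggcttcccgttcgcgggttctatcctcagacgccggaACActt
Snora73b: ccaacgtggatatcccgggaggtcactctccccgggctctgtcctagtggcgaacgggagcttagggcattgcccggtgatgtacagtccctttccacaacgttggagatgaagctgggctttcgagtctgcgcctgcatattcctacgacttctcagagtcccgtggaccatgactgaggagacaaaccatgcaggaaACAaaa
Scarna13: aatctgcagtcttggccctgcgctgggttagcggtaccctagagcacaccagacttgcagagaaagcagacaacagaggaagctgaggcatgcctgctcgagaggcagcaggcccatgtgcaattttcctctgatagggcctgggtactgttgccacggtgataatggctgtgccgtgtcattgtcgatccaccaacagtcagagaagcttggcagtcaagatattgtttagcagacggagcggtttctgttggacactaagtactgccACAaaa
Snord33: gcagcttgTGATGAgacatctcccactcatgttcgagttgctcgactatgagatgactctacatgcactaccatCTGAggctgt
Snord116l1: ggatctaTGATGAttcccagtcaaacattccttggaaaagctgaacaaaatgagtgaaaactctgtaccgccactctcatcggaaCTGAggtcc
Snord118 lies at chr11:69073427-69073561 on the plus strand. Snora57 lies at chr19:8888538-8888685, Snora73b at chr4:132352322-132352526 and Scarna13 at chr12:105031075-105031349, each on the minus strand. Snord33 lies at chr7:45126864-45126947 within Rpl13a and Snord116l1 at chr7:59894620-59894713 within Snhg14, both on the minus strand.

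Most members carried the letters of their class. TGATGA began within the first 20 nt in 69 of 97 Snord genes (71.1%), in 0 of 41 Snora genes and in 4 of 9 Scarna genes, against 0.759% of 8965 other annotated transcripts of 60 to 300 nt. Transcripts of snoRNA or scaRNA biotype were left out of these other transcripts. CTGA occurred within the last 15 nt in 91 Snord genes (93.8%), 3 Snora genes and 5 Scarna genes, against 7.22% of the other transcripts. ACA stood immediately before the last 3 nt in 34 Snora genes (82.9%), 0 Snord genes and 2 Scarna genes, against 1.86% of the other transcripts. In Snord118 the printed TGATGA begins at position 53, outside the window searched. A match is only a description of the letters, and no match says nothing of whether a functional box is present.

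Length divided the classes before any read was counted. Snord genes measured 64 to 238 nt with a median of 84 nt, the Snora genes other than 1 long row described below 121 to 205 nt with a median of 132.5 nt, and Scarna genes 70 to 414 nt with a median of 140 nt. In the deposited tables the effective length, which is the number of positions a read can start from, was the length minus 99 nt, so a gene shorter than 100 nt had an effective length of 0. All 2136 genes with a symbol under 100 nt, members included, held 0 reads in both libraries. Of the members, 88 were under 100 nt, of which 86 were Snord (88.7% of that class) and 2 were Scarna (Scarna9 and Scarna17). For these 88 a listed 0 is not a measurement of the RNA, and 59 members could hold a read. Against the size selection, 88 members were under 100 nt, 51 were of 100 nt to under 200 nt, and 8 were of 200 nt or more, the long Snora43 row among them.

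**Figure D1:**
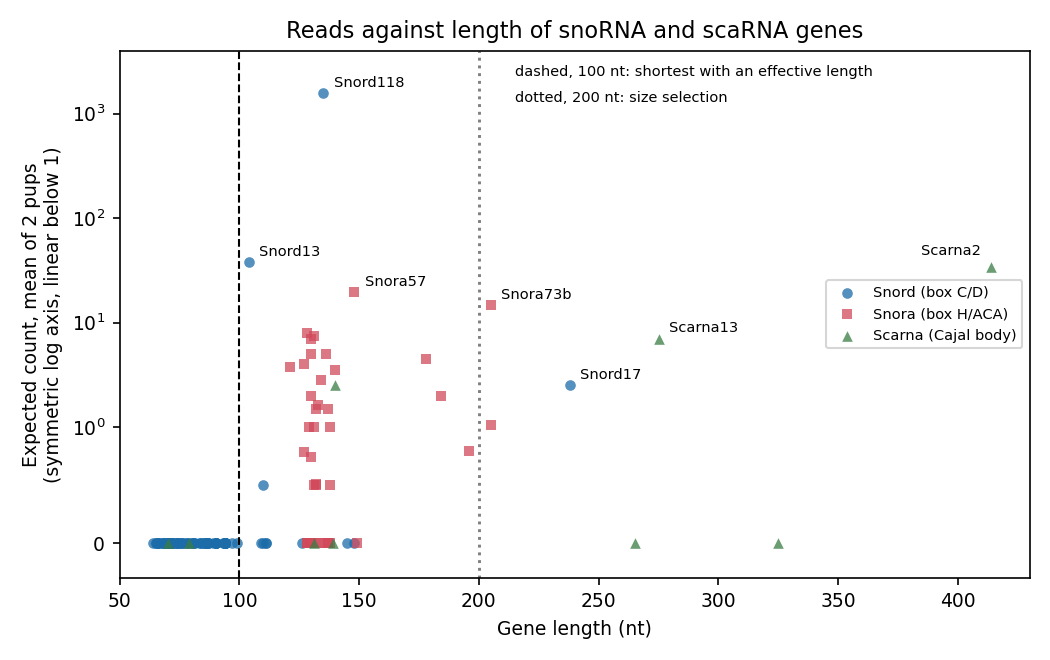
Mean expected count of the 2 pups (symmetric log axis, linear below 1) against gene length in nt for 146 members, leaving out the long Snora43 row; each point is 1 gene, coloured by class. All 88 members left of 100 nt sit at 0, Snord118 stands at the top, and Snord13, Scarna2 and Snora57 follow.

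At 1 TPM or more in both pups, 18 of 147 members were detected (12.2%, or 30.5% of the 59 that can hold a read), or 17 of 146 without the long Snora43 row. The same threshold was passed by 32.5% of all genes with a symbol and by 34.2% of those that can hold a read. It was passed by 2.23% of those of 100 nt to under 200 nt and by 37.6% of those of 200 nt or more. By length, 0 of 88 members under 100 nt, 14 of 51 members of 100 nt to under 200 nt and 4 of 8 members of 200 nt or more were detected. By class, 14 of 41 Snora (34.1%), 2 of 97 Snord (2.06%) and 2 of 9 Scarna were detected. For 9 of the 14 Snora genes every stretch of 100 nt is also present in another annotated gene. The Snora share was 32.1 percentage points above that of Snord. With each pup taken alone it was 38.37 points above in pup 1 and 41.84 points above in pup 2 (SD 2.45, n = 2). It was 15.96 points among members of 100 nt or more, where 2 of 11 Snord genes passed. These are descriptions, with no test.

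On the count scale 24 members had an expected count of 1 or more in both pups, against 50.1% of all genes with a symbol and 52.8% of those that can hold a read. A count of 10 in both pups was reached by 6 members, against 39.9% of all genes with a symbol and 42% of those that can hold a read. Any read in either pup was found for 36 of the 59 members that can hold one (61.0%), against 60.2% of all such genes, so this share was near that of genes in general. The TPM and count scales weigh short genes differently. A read was worth 5.56 TPM in pup 1 and 7.26 TPM in pup 2 for Snord13, 0.773 and 1.01 TPM for Snord118, 0.0883 and 0.115 TPM for Scarna2, and 0.0146 and 0.0191 TPM for a gene of 2000 nt. A single read reached 1 TPM for 8 members in pup 1 (up to 126 nt) and for 32 in pup 2 (up to 135 nt).

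**Figure D2:**
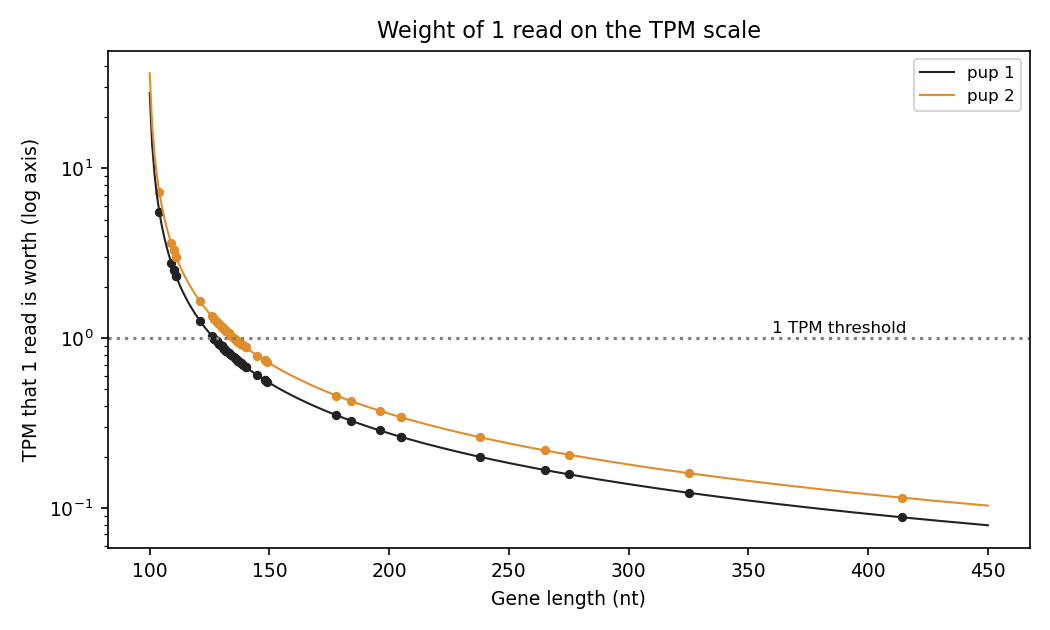
TPM that 1 read is worth (log axis) against gene length in nt, as a line for each pup with a point for each member that can hold a read. The weight falls from 5.56 and 7.26 TPM at Snord13 to 0.0883 and 0.115 TPM at Scarna2, and the pup 2 line lies above that of pup 1 throughout.

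All members together took 1962 reads in pup 1 and 1699 reads in pup 2. These were 0.0044% (exact 95% interval 0.00421 to 0.0046%) and 0.00488% (0.00465 to 0.00512%) of the reads on genes, a mean of 0.00464 ± 0.000339% (SD, n = 2). Intervals and floors cover counting error only.

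Snord118, the U8 RNA, acts in processing of the precursor of the large-subunit ribosomal RNAs rather than as a modification guide. It had expected counts of 1697 (exact Poisson 95% interval 1617 to 1780) in pup 1 and 1449 (1375 to 1526) in pup 2. Its level was 1311 TPM in pup 1 (deposited interval 1230 to 1352 TPM) and 1461 TPM in pup 2 (deposited interval 1359 to 1505 TPM). The pups' deposited intervals did not overlap on the TPM scale, while the ratio of counts corrected for library size, pup 1 over pup 2, was 0.939 with an exact interval of 0.875 to 1.01. This RNA of 135 nt held 89.4% of the members' reads in each pup (intervals 87.9 to 90.7% and 87.8 to 90.9%), leaving out the long Snora43 row. All of its 36 windows of 100 nt were unique among the annotated transcripts, and no annotated gene contains it: the nearest gene on its strand, Tmem107, ends 134 nt upstream and had 11.63 and 11.65 TPM.

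Snord13, the U13 RNA, takes part in the acetylation of small-subunit ribosomal RNA in human cells. It had 43 and 33 expected counts and 239.2 and 239.5 TPM in pups 1 and 2. The levels of the pups were nearly the same, with a count ratio of 1.05 (exact interval 0.648 to 1.7). With a length of 104 nt, 5 positions carried all of its reads. The other Snord genes of 100 nt or more were at or near 0. Snord17, a C/D RNA of 238 nt within Snx5, had 2 and 3 counts (0.4 and 0.78 TPM), and Snord8, of 110 nt within Chd8, had 1 and 0 counts.

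The other 7 Snord genes that can hold a read, Snord15a, Snord15b, Snord22, Snord23, Snord67, Snord89 and Snord90, had none. Their 3-count floors, the level that a count of 0 allows where all reads of a gene are given to it, were 1.7 to 8.34 TPM in pup 1 and 2.22 to 10.9 TPM in pup 2. A level of 1 TPM lay below the floor of either library for each of them. All 27 windows of Snord22 and all 46 of Snord15b are shared with another annotated gene, so their floors leave out reads given to that gene. The deposited upper bounds for Snord22 were 4.9 and 6.4 TPM, above its floors of 3.09 and 4.03 TPM.

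Among the Snora genes the most reads at snoRNA length fell on Snora57, of 148 nt, with 23 counts in pup 1 (exact interval 14.6 to 34.5) and 16 in pup 2 (9.14 to 26). Its level was 13.05 and 11.85 TPM, and the count ratio was 1.15 (exact interval 0.583 to 2.33). The gene overlaps Lbhd1 on the opposite strand, and the use of strand in the counting is not given, so reads of the pair may not be told apart. Its 49 windows were unique among spliced annotated transcripts.

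Snora73b, one of the U17 RNAs, which act in the cleavage of the ribosomal RNA precursor, had 11.72 and 17.62 counts (3.08 and 6.03 TPM). The count ratio was 0.534 (exact interval 0.235 to 1.17), and the intervals of the pups' counts overlapped. Its neighbour Snora73a, which differs from it at 7 of 205 positions, had 1.71 and 0.37 counts. Both lie within Snhg3 (53.26 and 44.68 TPM). All 106 windows of each are shared, those of Snora73b with Gm17300 on the opposite strand and those of Snora73a with Gm17300 and Snhg3, so the division of reads among these genes is uncertain.

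Other Snora genes rested on 16 summed reads or fewer. Snora78, within Snhg9, had 6 and 10 counts (5.75 and 12.51 TPM), and Snora68 had 12 and 3 counts (10.43 and 3.4 TPM). Snora30 had 10 and 4 counts (8.97 and 4.68 TPM), and Snora31, within Tpt1, had 8 and 2 counts (7.18 and 2.34 TPM). Snora78 lies opposite Rps2 (624 and 608 TPM), and although its 29 windows are unique among annotated transcripts, reads of the pair may not be told apart without strand. Pup 1 was higher for Snora68, Snora30 and Snora31 and lower for Snora78, and all 4 ratio intervals contained 1. The count ratio of Snora68 and of Snora31 was 3.21 each, with exact intervals of 0.866 to 17.7 and 0.64 to 31. Snora26 had 2.67 and 4.85 counts, which came to 3.37 and 8 TPM in this gene of 121 nt. Snora16a (4 and 6 counts), Snora64 (3.35 and 2.27), Snora81 (3.51 and 5.44), Snora28 (4 and 4), Snora7a (3 and 4) and Snora24 (3 and 1) also passed 1 TPM in both pups. Snora74a had 0 and 1.59 counts and did not pass.

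The row with the most reads among all Snora genes was a second Snora43 identifier, ENSMUSG00000097052, with 63.44 and 78 counts (1.76 and 2.88 TPM). In the deposited tables its 2 transcripts measured 741 and 2366 nt, while GENCODE M21 gives it 139 nt (chr2:26637847-26637985). Its values therefore describe long transcripts at that locus and not an RNA of snoRNA length. The Snora43 row of 127 nt had 1.56 and 0 counts, and its windows are all shared with the other.

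Of the Scarna genes, Scarna2, of 414 nt on the minus strand of chr3:108554338-108554751, had 36 and 32 counts (3.18 and 3.69 TPM). It guides methylation of the U2 spliceosomal RNA in human cells. The count ratio was 0.902 (exact interval 0.545 to 1.5), so a difference between the pups was not detectable at this depth. Scarna13, of 275 nt within Snhg10, had 9 and 5 counts (1.42 and 1.03 TPM, ratio 1.44, exact interval 0.434 to 5.48). Scarna3a, of 140 nt within Cop1, had 1 and 4 counts (0.68 and 3.54 TPM) and was at 1 TPM in pup 2 alone.

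Some of the longest Scarna genes had no reads. Scarna10, of 325 nt, which carries both kinds of box, and Scarna6, of 265 nt, had none. Their floors were 0.369 and 0.482 TPM for Scarna10 and 0.503 and 0.656 TPM for Scarna6, below 1 TPM in both pups. Of the 226 windows of Scarna10, 184 are shared with Ncapd2 or Gm28967, so its floors leave out reads given to those genes. The deposited upper bounds for Scarna10 were 0.469 and 0.757 TPM, above its floors. Scarna3b and Scarna8 also had none, with floors of 2.09 and 2.72 TPM and of 2.61 and 3.4 TPM. Of the 40 windows of Scarna3b, 25 are shared with another annotated gene, so its floors have the same limit as those of Scarna10. Over all classes, 23 members that can hold a read had none (12 Snora, 7 Snord and 4 Scarna). This was 39.0% of those members, near the 39.8% of all genes that can hold a read. Of the 23, 21 had floors of 1 TPM or more in both pups. Among them Snora9, Snora44, Snora52, Snora61, Snora70, Snord15b and Snord22 share every window with another annotated gene. The floors of these leave out reads given to that gene.

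Between the pups, 12 members had a summed count of 10 or more and could be compared. None had a ratio interval wholly beyond 2-fold (0 of 12), where 0.766% of 18918 genes did. The ratio was above 1 for 6 members and below 1 for 6, with a median of 0.992, against 1.005 over all genes compared. The interval excluded 1 for 1 member, the long Snora43 row (0.648, exact interval 0.457 to 0.914), where 29.7% of all genes excluded it. Without that row and Snord118 the members summed to 201.7 reads in pup 1 and 171.7 in pup 2, a ratio of 0.942 (exact interval 0.765 to 1.16).

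**Figure D3:**
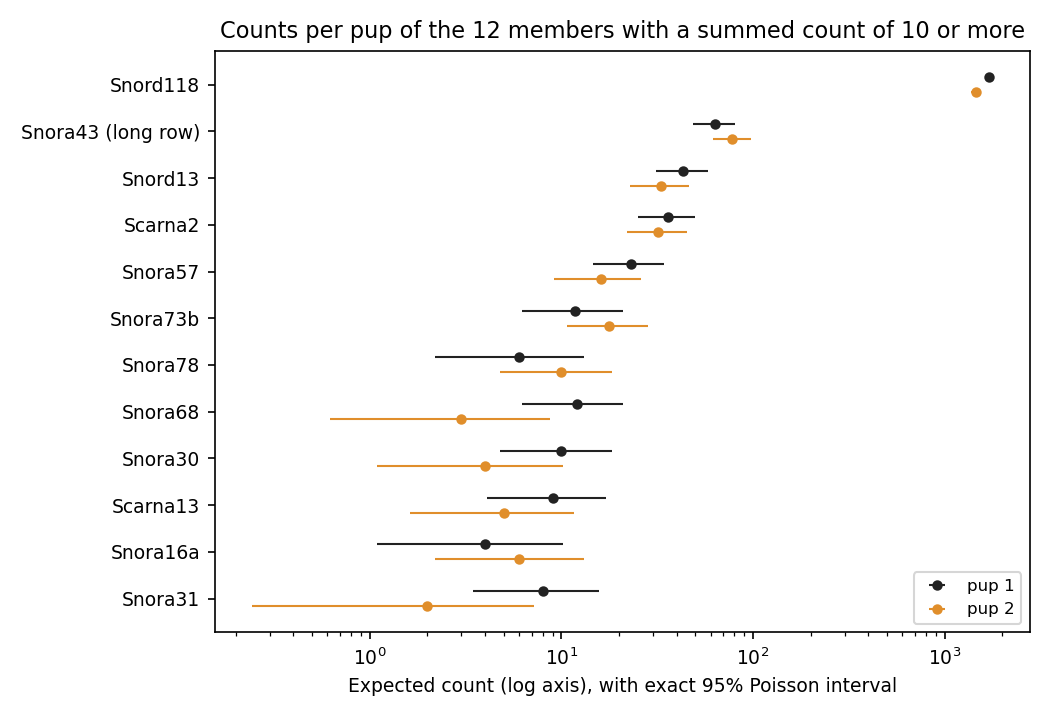
Expected counts (log axis) of the 12 members with a summed count of 10 or more, 1 row per gene, pup 1 in black above pup 2 in orange; bars are exact 95% Poisson intervals of each library. Counts are not scaled to library size; the bars of the pups overlap for each member other than Snord118, down to Snora31 with 8 and 2 counts.

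A host gene, the smallest annotated gene on the same strand that contains the member, was found for 138 members, in 90 different hosts. The hosts of 32 members were ribosomal protein genes. The 6 members that can hold a read and have no host, again without the long Snora43 row, were Snord118, Snord13, Scarna2, Snora57, Snora17 and the short Snora43. They held 94.8% of the members' reads in pup 1 and 94.4% in pup 2, and 4 of the 6 were detected. Snord118 alone held 1697 of their 1800.6 reads in pup 1 and 1449 of 1530 in pup 2. Without Snord118 and the long Snora43 row, the members summed to 201.7 and 171.7 reads, of which hosted members held 98.1 and 90.73. The 52 hosted members held 98.1 and 90.73 reads, and 13 of the 52 were detected. Hosts were searched in GENCODE M21, which gives the long Snora43 row 139 nt and the biotype snoRNA, so that row could not count as a host. Whether its long transcripts contain the short Snora43 or Snora17 was not tested.

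Members with reads and members without were found in high and in low hosts. Across 46 hosted members with a measured host, Spearman's rho between the member's mean count and the host's mean TPM was 0.356. The points share both libraries, and for the 24 members outside host exons rho was 0.352. Of 17 members whose host reached 100 TPM, 6 had no read: Snora20 (host Tcp1), Snora52 (Rplp2), Snora62 (Rpsa), Snora70 (Rpl10), Snord15a and Snord15b (both Rps3). Snora52 had 0 counts in both pups while Rplp2 had 788.4 and 808.6 TPM. In GENCODE M21 every window of 100 nt in Snora52 (38 windows), Snora70 (38) and Snord15b (46) is shared with its host. Reads of these members and of their hosts cannot be told apart, so their 0 does not show that the RNA was absent.

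**Figure D4:**
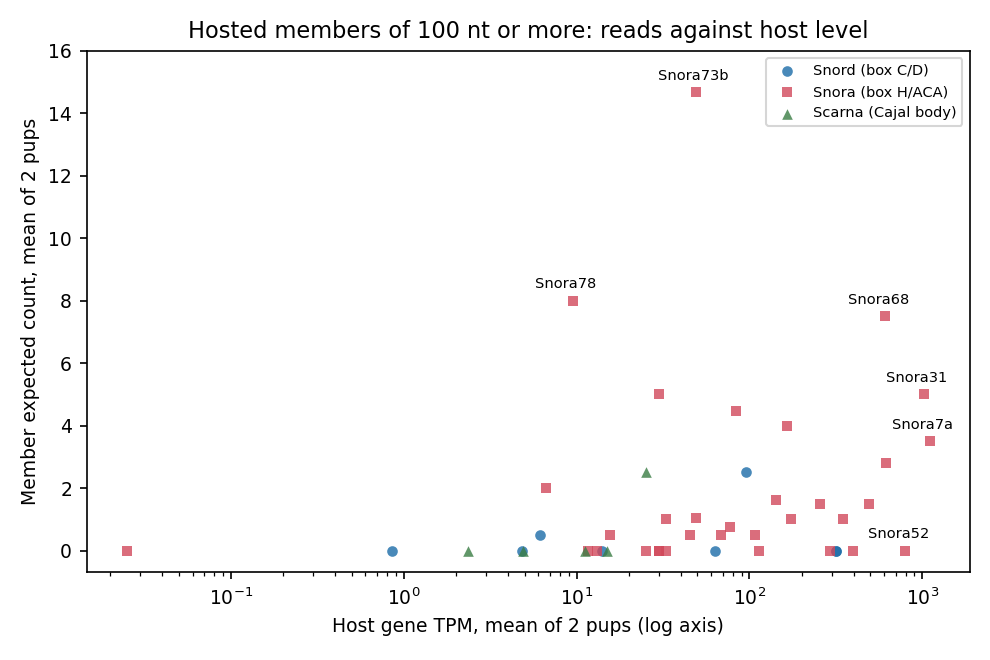
Mean expected count of hosted members of 100 nt or more (linear axis) against the mean TPM of the host gene (log axis), 46 points coloured by class. Snora73b is highest, with a host at 53.26 and 44.68 TPM, while Snora52 is at 0 with a host at 788.4 and 808.6 TPM. All 38 windows of Snora52 are shared with that host, Rplp2.

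Of the 52 hosted members that can hold a read, 26 overlap an exon of an annotated host transcript, and 8 of these were detected, against 5 of the 26 that do not. For Snora7a (Rpl32), Snora28 (Eif5) and Snora64 (Rps2) every window of 100 nt is also part of a host transcript, so reads of the member and of that host transcript cannot be told apart. Among the 58 members that can hold a read, without the long Snora43 row, 30 had unique windows throughout, 28 shared some and 24 shared all. All 11 members with a fractional count (more than 0.005 from a whole number) had shared windows.

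The members under 100 nt, which could take no read themselves, mostly lay in hosts that were detected. A host was found for 86 of the 88, and for 84 of them the host passed 1 TPM in each pup. The median host level was 31.4 TPM, with a range of 0.135 to 2012 TPM. Rpl13a, at 1176 and 1295 TPM, holds Snord32a, Snord33, Snord34 and Snord35a. Of these, Snord32a, Snord33 and Snord35a are known to respond to lipid stress in mouse. Hspa8, at 831 and 909.5 TPM, holds Snord14c, Snord14d and Snord14e, and Gas5, at 216.1 and 193.4 TPM, holds Snord47, Snord78 and Snord80. Snhg14, the long transcript of the imprinted region related to Prader-Willi syndrome in humans, had 4.41 and 4.31 TPM. It holds 17 Snord116 copies of 94 nt (chr7:59861731-59904848), which hold 4 distinct sequences, and pairs of copies differ at 0 to 5 positions. All 17 were at 0, as were the other members under 100 nt.

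Members were set beside other small RNA genes in the same tables. Of the 51 members of 100 nt to under 200 nt, 14 were detected, against 19 of 982 other genes of snoRNA or scaRNA biotype in that range (1.94%). Most of the 14 share every window with another annotated gene. These are Snora68, Snora16a, Snora81, Snora28, Snora26, Snora7a, Snora64 and Snora24. Shared windows were not searched for the 982 other genes. In the same range of length, detection was 9 of 1189 for spliceosomal and other snRNA genes and 14 of 714 for miRNA genes (1.96%). These shares are described and not tested, since genes of 1 library are not replicates.

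Genes for proteins that bind, assemble or localise these RNAs were detected throughout. Each of the 22 genes listed passed 1 TPM in pup 1 and in pup 2. Their median level was 21.4 TPM, against 11.55 TPM over all detected genes, and 0 of 22 differed beyond 2-fold between the pups, against 26 of 13805 detected genes. The box C/D core had 49.79 and 53.73 TPM for Fbl (fibrillarin, the methyltransferase), 52.23 and 59.58 TPM for Nop56, 66.01 and 71.49 TPM for Nop58, and 88.71 and 81.83 TPM for Snu13, which binds the box motif first. The box H/ACA core had 21.29 and 23.21 TPM for Dkc1 (dyskerin, the pseudouridine synthase), 96.34 and 91.16 TPM for Nop10, 80.05 and 78.16 TPM for Nhp2, and 24.85 and 23.58 TPM for Gar1.

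The Cajal-body genes lay between Coil (coilin, 3.66 and 3.33 TPM) and Smn1 (20.98 and 20.2 TPM). Wrap53, which brings H/ACA scaRNAs to the Cajal body, had 11.88 and 11.52 TPM, and Nolc1 had 12.48 and 13.47 TPM. The assembly factors ranged from Naf1, an H/ACA assembly factor (2 and 1.78 TPM), to Pih1d1 of the R2TP complex (51.83 and 50.87 TPM). The ATPases Ruvbl1 and Ruvbl2 of the same complex had 24.55 and 21.7 TPM and 27.1 and 26.85 TPM. Tgs1, which forms the trimethylated cap of independently transcribed RNAs such as U8, had 12.86 and 15.26 TPM.

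**Figure D5:**
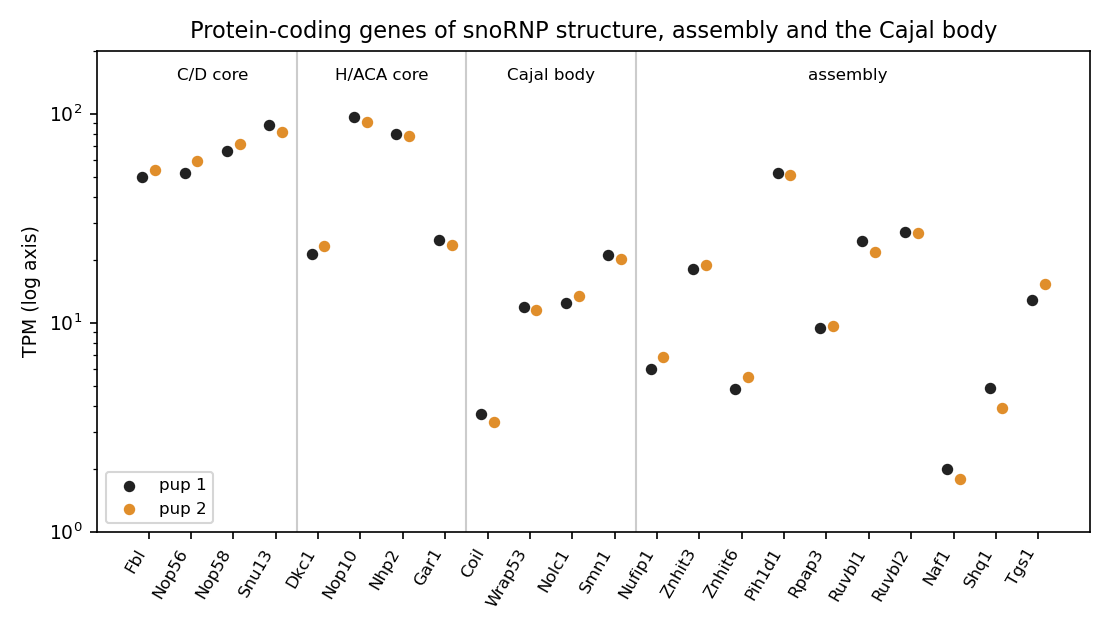
TPM (log axis) of 22 protein-coding genes of snoRNP structure, assembly and the Cajal body, with a point for each pup. All points lie above 1 TPM, from Naf1 near 2 TPM to Nop10 near 96 TPM, and the points of the pups are close together for each gene.

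Markers of the labelled tissue were high. Vil1, the brush-border protein villin, had 174 and 195.5 TPM, Cdx2 had 28.08 and 31.26 TPM, and Fabp2 had 12825 and 11961 TPM. Smooth muscle was present (Actg2 1825 and 1912 TPM). Among markers of neighbouring tissues, Alb was at 0.79 and 0.86 TPM, Cpa1 at 2.81 and 3.28 TPM and Hba-a1 at 316.2 and 485.2 TPM. Ttr had 334.8 and 309.8 TPM and Prss2 8.43 and 14.34 TPM, and their part in the members' values was not tested.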

How the data were processed

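Total RNA longer than 200 nt from the intestine of 2 littermate pups was measured, 1 library each, in 1 group without a contrast. The authors deposited expected counts (estimated read counts), posterior mean counts, TPM and FPKM per gene, on mm10 with GENCODE M4, per the text deposited with the tables. The deposited TPM and FPKM are relative to effective length and to sequencing depth. The deposited bounds of the TPM intervals, handled as a signal, have no stated coverage level. The aligner, the quantifier and whether strand was used were not given in the sources used here.

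Symbols, positions and sequences came from GENCODE M21 (GRCm38), matched by identifier for 42462 of 43346 Ensembl genes (98.0%). Depth was 44568098 and 34797495 expected counts, so 3 counts are 0.0673 and 0.0862 CPM. Detection was 1 TPM or more in both pups. Ratios used counts rounded to whole numbers, library sizes by the TMM method of edgeR 4.0.16 (R 4.3.3) and exact (Clopper-Pearson) 95% intervals from SciPy 1.17.1. For genes with at least 10 reads in the sum of the pups, a ratio was counted as beyond 2-fold where the whole interval exceeded 2 or fell under 0.5. No p-value is given, since each pup is 1 library. DESeq2 1.42.0 size factors, other thresholds and leaving out a pup were alternatives. The script for ratios was tested on simulated data. Python 3.11.15, numpy 2.4.6, pandas 2.3.3 and matplotlib 3.10.9 were used.

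Named were, per class, the 5 highest members by TPM and by count, every member of 200 nt or more with a count of 10 in both pups, a list chosen by role, and the proteins listed. Detected members outside these, and members without reads, were named after their values were seen. Snord3a and Snord115, also on the list by role, are not among the 147 members and are not analysed here. The name of 1 host gene and 1 further sequence were left out of the text. The members and lists were chosen with earlier results of these data known.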

Additional observations from a re-analysis of the deposited data

How the results depend on the processing

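Of 53 alternative values, 34 stayed close to the reported one, meaning within 1.5 times for a count and within 1 SD over the pups for a share or difference, and 19 moved further. Among those 34, the 18 members detected became 16 at an FPKM of 1, 17 without the long Snora43 row and 14 with a count of 3. The 18 members detected became 28 at 0.1 TPM, 4 at 5 TPM, 38 with the posterior mean TPM, which is above 0 also for genes without reads, and 6 when a count of 10 was also asked. Under the same 4 settings the 14 members under 200 nt became 22, 4, 34 and 3, and the Snora minus Snord difference became 50.57, 2.82, 57.61 and 5.255 points. That difference was 15.96 points among members of 100 nt or more, a setting chosen after seeing the data, as were those without the long Snora43 row and with a count of 3. The 4 members of 200 nt or more became 0 at 5 TPM. The 24 members with a count of 1 became 6 at a count of 10. The share of reads was 0.000656% without Snord118 and 0.172% as a share of TPM. With 1 pup alone, 22 to 23 members were detected, 18 to 19 of them under 200 nt and 4 to 4 at 200 nt or more, 28 to 30 had a count of 1, the share was 0.0044 to 0.00488% and the difference 38.37 to 41.84 points. The count of members beyond 2-fold was 0 under all 5 alternatives. Apart from the settings whose construction is given, the cause was not tested. No paired analysis was possible because there is 1 group. Of the 23 members that can hold a read and had none, 21 had floors of 1 TPM or more. Some of these, such as Snora44 and Snord22, share every window of 100 nt with another annotated gene. The parts of depth and of the division of reads in these zeros were not tested.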

Other observations

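The U3 RNA, the most abundant box C/D RNA in most cells, is annotated in these tables under Rnu3 symbols and so lies outside the set described above. Its 5 genes summed to 415 counts in pup 1 and 306 in pup 2 (99.48 and 95.44 TPM), a ratio of 1.09 (exact 95% interval 0.936 to 1.265). The copies did not divide these reads alike in the 2 pups. Rnu3b2 and Rnu3b4 had 207 and 89.2 counts each, while Rnu3b1 and Rnu3b3 had 0 and 59.8 counts each. The sum over copies was thus nearly the same in the pups, and the values of single copies are uncertain.

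Some predicted genes of snoRNA or scaRNA biotype held more reads than most named members. Gm26083, of 193 nt, had 87.09 and 53.26 counts (25.77 and 20.56 TPM), Gm24616, of 139 nt, had 39 and 23 counts (27.11 and 20.87 TPM), and Gm24853, of 121 nt, had 19.34 and 26.42 counts (24.45 and 43.59 TPM). These 3 were chosen after their values were seen, and all 3 ratio intervals contained 1.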
